A study of Homo sapiens with 19 samples.

Results

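The transcripts described here encode 9 large proteins that build or anchor the actin cytoskeleton: the spectrins SPTBN1 and SPTAN1, the scaffold IQGAP1, drebrin (DBN1), filamin A (FLNA), the alpha-actinins ACTN1 and ACTN4, the nonmuscle myosin heavy chain MYH9 and talin (TLN1). They were taken by symbol from a list, and several had been chosen by their exon counts, which were in excess in the nuclear wash of these same samples. They are 9 of the 58051 human genes counted, and 9 of 9 passed the filter on low counts that left 15940 genes for testing. The RNA came from untreated K562, an established human leukaemia cell line that expresses erythroid genes. The groups were the nuclear wash prepared without rRNA depletion (3 libraries) and, all depleted of rRNA, the nuclear wash, the nucleus, the cytoplasm and whole cells (4 libraries each). The groups share the cell line, the Trizol LS extraction, the synthetic yeast spike-ins and a stranded total RNA kit with 1 µg of input RNA. The labels name the fractions but do not say how the nuclei were washed or whether replicates are separate cultures. The p-values thus reflect only how far these libraries spread, which may be technical.

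Spectrin is a long flexible rod made of an alpha and a beta chain. It cross-links short actin filaments into a lattice under the plasma membrane, best known from the red cell, which has erythroid chains of its own. Filamin, alpha-actinin and talin join actin filaments to each other and to integrins, MYH9 pulls on the filaments, and IQGAP1 brings actin together with the GTPases RAC1 and CDC42. None of these proteins is known to carry a signal peptide, the hydrophobic start that sends a nascent chain and its mRNA to the endoplasmic reticulum.

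The coding starts of the transcripts that stood out most are shown for that reason, beside HSPA5, the lumenal chaperone BiP, whose protein does begin with a signal peptide. Each line gives the first 60 coding bases, 5′ to 3′, of the representative GENCODE 29 transcript (GRCh38, on chromosomes 2, 9, 15 and 9). Capitals mark codons with T in the middle, which code for hydrophobic residues.
SPTBN1: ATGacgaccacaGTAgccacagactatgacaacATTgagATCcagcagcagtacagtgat
SPTAN1: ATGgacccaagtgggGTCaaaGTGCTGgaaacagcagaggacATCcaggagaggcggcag
IQGAP1: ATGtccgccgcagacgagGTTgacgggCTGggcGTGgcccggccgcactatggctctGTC
HSPA5: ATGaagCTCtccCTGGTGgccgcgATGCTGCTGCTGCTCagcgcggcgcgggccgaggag
The capitals stood in 4 of 20 codons in SPTBN1, in 5 each in SPTAN1 and IQGAP1, and in 9 in HSPA5, where 5 of them formed an unbroken run. Over the first 30 codons the 9 mRNAs had a median of 6 such codons, against 8 over 11265 tested protein-coding genes. They ranged from 3 in FLNA and ACTN4 to 12 in TLN1, which was above the 11 of HSPA5. HSPA5 averaged 1311 ± 210 CPM in the nuclear wash, 442 ± 86 in the nucleus, 317 ± 64 in the cytoplasm and 417 ± 39 in whole cells (SD, n = 4 each).

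Exon counts numbered 1373755 to 7955415 per depleted library and 923464 to 1801293 per undepleted library. Yeast spike-ins took 0.192 to 4.14% of the counts of the depleted libraries. The K562 label was checked against erythroid markers, and 8 of 8 passed the count filter, against 3 of 8 markers of other lineages (EPCAM and PECAM1 among them). Levels are given as CPM, exon counts scaled to a common library size with TMM factors, which hold the typical gene level between libraries. Fold changes are relative to such a gene and say nothing of how much RNA a fraction held. In bulk fractions, more cells or nuclei in a sample and more RNA in each cannot be told apart. A gene was called where edgeR's quasi-likelihood test gave a Benjamini-Hochberg adjusted p under 0.05 over all tested genes.

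The 9 mRNAs parted into those low in the cytoplasm and those not. SPTBN1, SPTAN1, IQGAP1, DBN1 and ACTN4 were higher in the nucleus than in the cytoplasm, the first 3 of them by 10.1 to 11.3-fold. MYH9, TLN1 and ACTN1 were lower in the nucleus, and FLNA was not called. Set against whole cells, SPTBN1, SPTAN1, IQGAP1, DBN1 and ACTN4 were lower in the cytoplasm, while FLNA, ACTN1, MYH9 and TLN1 were not called there. The wash libraries chose several of the mRNAs and stand on neither side of these contrasts. They share the fit, however, and so enter its count filter, its scaling and its estimate of the spread. The nucleus, cytoplasm and whole-cell libraries are also those the wash was set against when the mRNAs were picked.

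Counted together for nucleus over cytoplasm, 5 of the 9 were called higher and 3 lower, where 76.8% of all 15940 genes were called (39.3% higher and 37.5% lower). The split was 5 higher and 2 lower with RLE factors or DESeq2, 6 and 1 with no composition factor, and 4 and 4 with spike-in library sizes or gene-body counts. Cytoplasm over whole cell gave 0 called higher and 5 lower, beside 22.3% of all genes higher and 27.6% lower. With gene-body counts it gave 4 higher (FLNA at 0.72, ACTN1 at 0.43, MYH9 at 0.70 and TLN1 at 0.88) and 4 lower, and with spike-in library sizes 0 higher and 9 lower. For nucleus over whole cell 3 were higher and 3 lower, beside 54.9% of all genes (25.9% higher and 29.0% lower), and with spike-in library sizes 0 were higher and 9 lower. On spike-in library sizes 92.2% of all genes were called for cytoplasm over whole cell and 86.4% for nucleus over whole cell. With calls this common across all genes, the counts alone do not set these mRNAs apart, and their sizes carry the description. SPTBN1, SPTAN1 and IQGAP1 stood above 89.9, 90.2 and 89.1% of tested genes for nucleus over cytoplasm, MYH9 above 22.1% and TLN1 above 28.7%. The median over the 9 was 0.77 for nucleus over cytoplasm, -0.47 for cytoplasm over whole cell and 0.31 for nucleus over whole cell, against 0.03, -0.00319 and 0.04 over all tested genes. With gene-body counts, which add intron reads, nucleus over cytoplasm was 2.14 for SPTBN1, 1.94 for SPTAN1, 1.98 for IQGAP1, -1.58 for FLNA and -2.06 for TLN1.

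**Figure D1:**
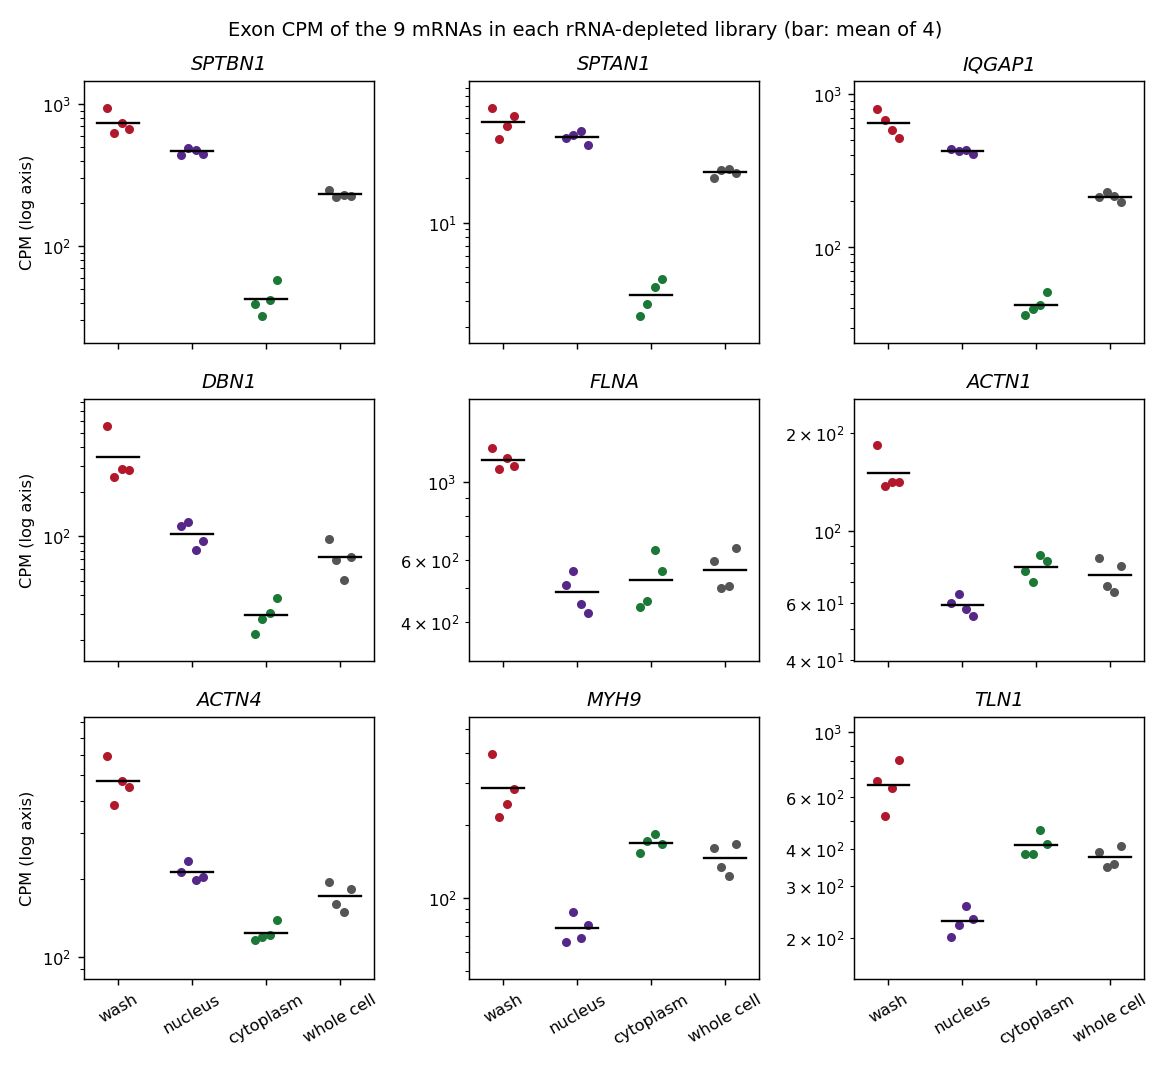
Exon CPM (log axis) of each of the 9 mRNAs in every rRNA-depleted library, by fraction, with the mean of 4 libraries as a bar. SPTBN1, SPTAN1 and IQGAP1 were lowest in the cytoplasm by a wide gap, whereas MYH9 and TLN1 were lowest in the nucleus.

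SPTBN1 (ENSG00000115306, chromosome 2, 54456285 to 54671445, plus strand) encodes the nonerythroid beta chain of spectrin. It had 944, 622, 733 and 666 CPM in nuclear wash libraries 1 to 4, 439.8, 493, 478 and 445 in the nucleus, 39.3, 31.9, 41.5 and 57.9 in the cytoplasm, and 248, 223, 229.6 and 225 in whole cells. All 4 fractions were thus separate from each other on this scale, in the order wash, nucleus, whole cell, cytoplasm. The step from nucleus to wash depended on the scale, and with no composition factor it was -0.01. The nucleus exceeded the cytoplasm by a log2 fold change of 3.44 (SE 0.166, adjusted p = 2.4e-13) and whole cells by 1.01 (SE 0.151, adjusted p = 1.31e-05), and the cytoplasm lay below whole cells by -2.44 (SE 0.161, adjusted p = 6.53e-10). Cytoplasm libraries held 198 to 371 reads of it, so the low level there was well counted.

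SPTAN1 (ENSG00000197694, chromosome 9, 128552558 to 128633662, plus strand), the nonerythroid alpha chain that pairs with SPTBN1, followed its partner at a far lower level. It had 58.1, 36.1, 44.0 and 51.3 CPM in the nuclear wash, 36.8, 38.8, 40.8 and 33.2 in the nucleus, 2.38, 2.86, 3.68 and 4.22 in the cytoplasm, and 19.97, 22.5, 22.7 and 21.6 in whole cells. Here the wash overlapped the nucleus, while the cytoplasm lay below every other library. The nucleus was higher than the cytoplasm by 3.49 (SE 0.186, adjusted p = 9.38e-13) and higher than whole cells by 0.78 (SE 0.157, adjusted p = 3.04e-04), and the cytoplasm was lower than whole cells by -2.71 (SE 0.187, adjusted p = 1.06e-09), all in edgeR's test. Only 12 to 27 reads per cytoplasm library stand behind this, and SPTAN1 overlaps WDR34, a gene on the other strand with a mean of 124 exon counts per library. With gene-body counts the difference between nucleus and whole cells was 0.21 and no longer called.

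IQGAP1 (ENSG00000140575, chromosome 15, 90388218 to 90502243, plus strand) had the profile of SPTBN1 and nearly its CPM. The nuclear wash had 805, 684, 583 and 517 CPM, the nucleus 438, 426, 433.5 and 407, the cytoplasm 36.1, 39.7, 41.9 and 51.2, and whole cells 215, 229.5, 217 and 199. Again no fraction overlapped another on this scale, but with no composition factor wash over nucleus was -0.07. The nucleus was above the cytoplasm by 3.33 (SE 0.145, adjusted p = 7.18e-14) and above whole cells by 0.99 (SE 0.133, adjusted p = 3.22e-06), and the cytoplasm was below whole cells by -2.35 (SE 0.140, adjusted p = 1.91e-10).

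DBN1 (ENSG00000113758, chromosome 5, 177456608 to 177474401, minus strand) encodes drebrin, an actin-side-binding protein best known from dendritic spines. It had 551, 250.1, 286 and 279 CPM in the nuclear wash, 117, 125, 81.0 and 93.4 in the nucleus, 22.02, 27.8, 30.3 and 38.1 in the cytoplasm, and 96.1, 69.2, 50.9 and 72.6 in whole cells. The first wash library stood well above its replicates, and the nucleus overlapped whole cells. DBN1 was higher in the nucleus than in the cytoplasm by 1.81 (SE 0.242, adjusted p = 7.74e-07 in edgeR's test) and lower in the cytoplasm than in whole cells by -1.27 (SE 0.239, adjusted p = 2.09e-04). Within prefix 1 of the column names, which covers replicates 1 and 2, the difference between nucleus and cytoplasm was 2.27, and within prefix 2 it was 1.35. With gene-body counts it was 0.49 (adjusted p = 0.0623).

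ACTN4 (ENSG00000130402, chromosome 19, 38647649 to 38731583, plus strand), an alpha-actinin that bundles actin, moved the same way by much less. Its CPM ranged from 386 to 594 in the nuclear wash, 197 to 235 in the nucleus, 116 to 139 in the cytoplasm and 149 to 194 in whole cells, with no overlap between any pair of these fractions. It was higher in the nucleus than in the cytoplasm by 0.77 (SE 0.131, adjusted p = 1.75e-05 in edgeR's test) and lower in the cytoplasm than in whole cells by -0.47 (SE 0.130, adjusted p = 0.00562). On spike-in library sizes the first value was 0.14, against an all-gene median of -0.60 on that scale, and with gene-body counts the second was -0.24 (adjusted p = 0.0901). ACTN4 overlaps CAPN12 on the other strand, which had a mean of 142 exon counts per library.

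MYH9 (ENSG00000100345, chromosome 22, 36281277 to 36388067, minus strand), the motor chain of nonmuscle myosin IIA, went the other way. The nuclear wash had 394, 217, 245 and 284 CPM, the nucleus 65.9, 88.0, 68.8 and 77.8, the cytoplasm 154.5, 173, 184 and 167, and whole cells 162, 135, 124 and 168. The nucleus lay below every library of the other fractions, and the cytoplasm overlapped whole cells. The nucleus was below the cytoplasm by -1.18 (SE 0.163, adjusted p = 1.24e-06) and below whole cells by -0.97 (SE 0.163, adjusted p = 4.78e-05), and the cytoplasm did not pass the test against whole cells (0.21, adjusted p = 0.283).

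TLN1 (ENSG00000137076, chromosome 9, 35696948 to 35732395, minus strand), which couples integrins to actin, had the same arrangement. Its CPM ranged from 520.0 to 807 in the nuclear wash, 201 to 256 in the nucleus, 385 to 466 in the cytoplasm and 348 to 411.5 in whole cells. The nucleus was separate from both cytoplasm and whole cells, which overlapped. TLN1 was lower in the nucleus than in the cytoplasm by -0.86 (SE 0.130, adjusted p = 4.27e-06 in edgeR's test) and lower than in whole cells by -0.73 (SE 0.130, adjusted p = 9.82e-05), and stood at 0.13 (adjusted p = 0.405) for cytoplasm over whole cells. With no composition factor the first was -0.24 (adjusted p = 0.117), on a scale where the median of all genes was 0.64. Its gene overlaps CREB3 on the other strand.

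FLNA (ENSG00000196924, chromosome X, 154348524 to 154374638, minus strand), the actin cross-linker filamin A, was not called between the fractions other than the wash. It had 1251, 1090.2, 1167 and 1106 CPM in the nuclear wash, 511, 558, 449.8 and 425 in the nucleus, 442, 459, 640.5 and 559.8 in the cytoplasm, and 596, 500.3, 505 and 649.9 in whole cells. Nucleus, cytoplasm and whole cells overlapped in every pair. The log2 fold change was -0.11 for nucleus over cytoplasm (SE 0.135, adjusted p = 0.457), -0.21 for nucleus over whole cells (SE 0.135, adjusted p = 0.189) and -0.10 for cytoplasm over whole cells (SE 0.134, adjusted p = 0.564). Between nucleus and cytoplasm it was 0.24 within prefix 1 and -0.45 within prefix 2, where it was called (adjusted p = 0.00147). For that contrast the direction over all libraries depended on the scale, with calls at 0.50 with no composition factor (adjusted p = 0.00157), -0.74 with spike-in library sizes (adjusted p = 5.44e-04) and -1.58 with gene-body counts (adjusted p = 6.71e-09).

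ACTN1 (ENSG00000072110, chromosome 14, 68874143 to 68979440, minus strand), the other alpha-actinin measured here, differed little between fractions other than the wash. Its CPM ranged from 138 to 185 in the nuclear wash, 55.0 to 64.3 in the nucleus, 69.6 to 84.6 in the cytoplasm and 65.0 to 82.9 in whole cells. The nucleus lay just under the others without overlap. It was lower in the nucleus than in the cytoplasm by -0.39 (SE 0.126, adjusted p = 0.00817 in edgeR's test), but -0.22 (adjusted p = 0.250) within prefix 1, -0.25 with RLE factors (adjusted p = 0.0845) and with DESeq2 (adjusted p = 0.0870), and 0.23 with no composition factor. Against whole cells it was lower in the nucleus by -0.30 (SE 0.127, adjusted p = 0.0471), and this call was lost without any of whole-cell libraries 1 (-0.27) or 4 (-0.30, adjusted p = 0.0809) or nucleus libraries 1 (-0.32, adjusted p = 0.0699), 3 (-0.30, adjusted p = 0.0884) or 4 (-0.28, adjusted p = 0.0980).

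The nucleus-over-whole-cell calls changed with the replicate number as a block. DBN1, at 0.54 (adjusted p = 0.0559) in the fit without it, was called at 0.56 (adjusted p = 0.00969), and ACTN4, at 0.31 (adjusted p = 0.0514), was called at 0.32 (adjusted p = 0.0242). With the block 8 of 9 were called, beside 60.2% of all genes. With spike-in library sizes the median of all genes moved to -1.83, and the values of SPTBN1, SPTAN1 and IQGAP1 turned to -0.86, -1.09 and -0.88, still above that median.

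None of the 9 was called lower than whole cells in both cytoplasm and nucleus. A joint (intersection-union) test, in which the larger p of both contrasts counts, called 0 of the 9 mRNAs and 0 of 15940 genes (0.0%) lower in both. At an unadjusted p under 0.05 it gave 0 of the 9 and 14 genes in all, and DESeq2 also called 0 genes. FLNA was below whole cells in both fractions without passing (-0.10 in the cytoplasm and -0.21 in the nucleus). On spike-in library sizes, where the median of all genes was -1.24 for the cytoplasm and -1.83 for the nucleus, all 9 were called lower in both. On that scale 92.2% of all genes were called in either direction for the cytoplasm and 86.4% for the nucleus, so this count does not set the 9 apart.

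**Figure D2:**
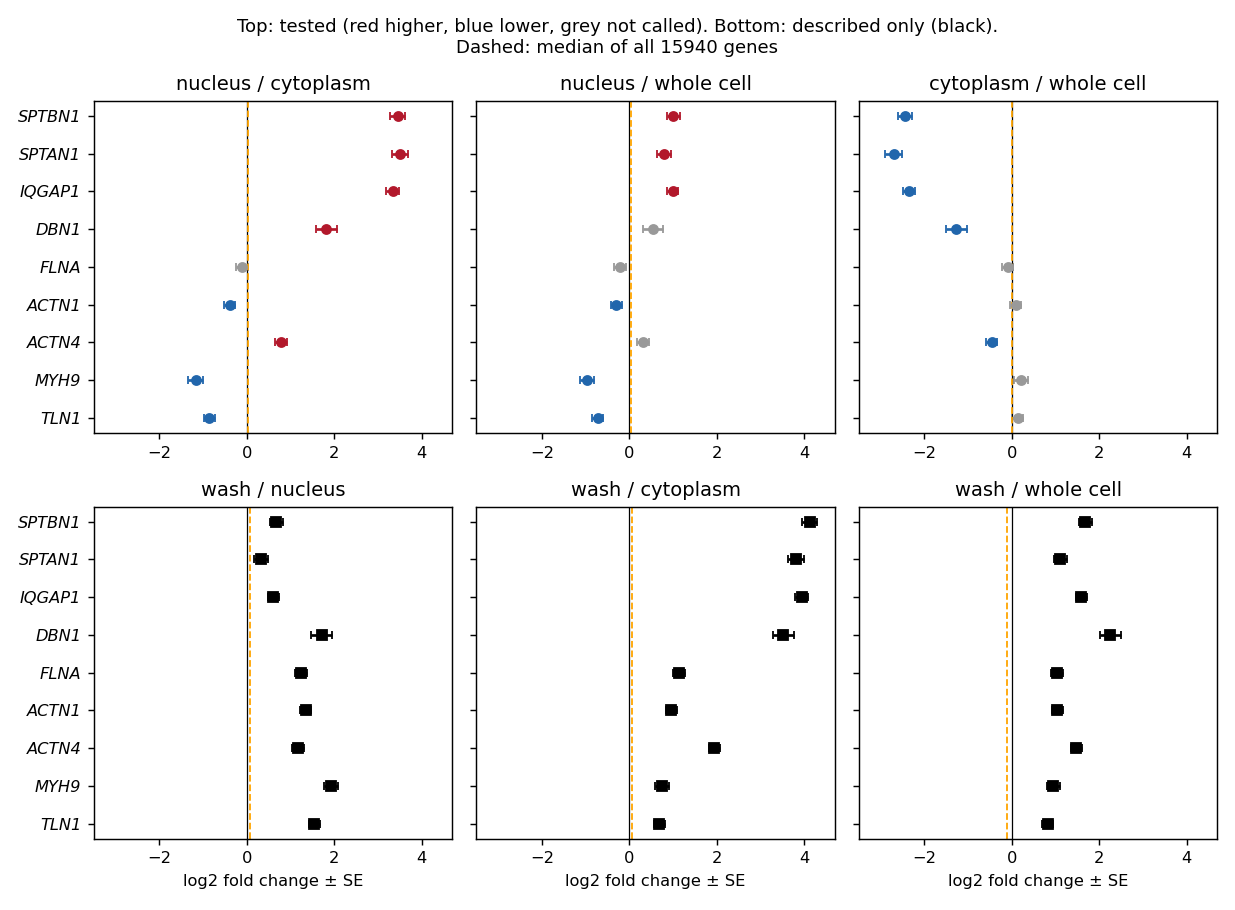
Log2 fold change with its SE for the 9 mRNAs, with the fraction on top of the ratio named first in each panel and the median of all 15940 genes dashed. In the upper, tested panels SPTBN1, SPTAN1 and IQGAP1 lie between 3.33 and 3.49 for nucleus over cytoplasm and MYH9 at -1.18, and in the lower panels, which are described only, every point lies above the dashed median.

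The excess in the wash chose several of the mRNAs, so it is given as a description. With TMM factors all 9 had a higher mean in the nuclear wash than in any other depleted fraction. Over the cytoplasm the log2 fold change was 4.12 for SPTBN1, 3.93 for IQGAP1, 3.81 for SPTAN1 and 3.52 for DBN1, which put them at ranks 14, 25, 37 and 55 of 15940 genes. ACTN4 followed at 1.94, and FLNA at 1.13, ACTN1 at 0.96, MYH9 at 0.74 and TLN1 at 0.68. The order was nearly turned round over the nucleus. There MYH9 (1.92), DBN1 (1.71) and TLN1 (1.54) led, and SPTBN1 (0.67), IQGAP1 (0.60) and SPTAN1 (0.32) came last. With no composition factor SPTBN1, IQGAP1 and SPTAN1 were at -0.01, -0.07 and -0.36 over the nucleus, where the all-gene median was -0.61. With spike-in library sizes they were at -1.86, -1.91 and -2.23, where it was -2.47. Over whole cells the range was narrower, from 0.82 for TLN1 to 2.25 for DBN1, which was at rank 5 of all genes, ahead of SPTBN1 (1.68, rank 85) and IQGAP1 (1.59, rank 123).

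Wash libraries lay above every cytoplasm library for 9 of 9, above every whole-cell library for 9 of 9, and above every nucleus library for 8 of 9, the exception being SPTAN1. Over all genes, 18.8, 12.9 and 31.7% were above without overlap in those comparisons. Medians over the 9 were 1.94 over the cytoplasm, 1.11 over whole cells and 1.25 over the nucleus, against 0.05, -0.10 and 0.06 over all genes. With spike-in library sizes the all-gene medians moved to -3.10, -4.51 and -2.47, and the medians of the 9 to -1.23, -3.31 and -1.28. On that scale 4 of 9 were above 0 over the cytoplasm, 0 over whole cells and 0 over the nucleus, and 9 of 9 remained above the all-gene median in each. Without wash library 1, which was high for DBN1, the DBN1 values were 3.19 over the cytoplasm, 1.93 over whole cells and 1.42 over the nucleus.

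Levels were compared between the mRNAs per kb of annotated exon. These lengths add up the exons of every isoform, 18504 bases for SPTBN1 against 8482 in its representative transcript, so levels of genes with many isoforms are understated. In the wash FLNA led at 109 CPM per kb, ahead of ACTN4 (78.2), DBN1 (66.7), TLN1 (65.8), IQGAP1 (56.1), SPTBN1 (40.1), MYH9 (31.6), ACTN1 (14.2) and SPTAN1 (2.92). From ACTN4 to MYH9 each neighbour in that order overlapped the next, and FLNA, ACTN1 and SPTAN1 were separate. The order in the nucleus was FLNA (45.9), IQGAP1 (36.9), ACTN4 (34.8), SPTBN1 (25.1), TLN1 (22.6), DBN1 (20.4), MYH9 (8.34), ACTN1 (5.58) and SPTAN1 (2.30), where IQGAP1 overlapped ACTN4, and SPTBN1, TLN1 and DBN1 ran into each other.

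In the cytoplasm the spectrins and IQGAP1 dropped to the end of the order. FLNA (49.6 CPM per kb) and TLN1 (41.0) overlapped at the top, then came ACTN4 (20.3) with MYH9 (18.8), ACTN1 (7.30) with DBN1 (5.77), and IQGAP1 (3.66), SPTBN1 (2.31) and SPTAN1 (0.202). DBN1 overlapped IQGAP1, and IQGAP1 overlapped SPTBN1. Whole cells had FLNA (53.2), TLN1 (37.4) and ACTN4 (28.1) apart from each other, then IQGAP1 (18.6), MYH9 (16.3), DBN1 (14.1) and SPTBN1 (12.5), each overlapping its neighbour, and then ACTN1 (6.92) and SPTAN1 (1.34).

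The wash prepared without rRNA depletion was set against the depleted wash. The mRNAs were picked for their excess in the nuclear wash and the undepleted libraries carry column prefixes of the depleted ones, so these values are not independent of that choice and say nothing further about the excess. In the fit of the 7 wash libraries, MYH9, DBN1, SPTAN1 and ACTN4 were higher in the undepleted than in the depleted wash, 4 called higher and 0 lower, where 11.1% of 11627 genes were called (7.75% higher and 3.35% lower). On the CPM scale of that fit MYH9 had 464, 428 and 613 CPM in the undepleted wash, against 291, 156, 173 and 205 in the depleted wash, with no overlap (1.28, SE 0.225, adjusted p = 0.00473). DBN1 had 499, 543 and 732 CPM in the undepleted wash and 407, 179.7, 202 and 202 in the depleted wash, also apart (1.26, SE 0.275, adjusted p = 0.0150).

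ACTN4 (0.61, SE 0.180, adjusted p = 0.0495) and SPTAN1 (0.69, SE 0.202, adjusted p just under 0.05) passed only narrowly in edgeR's test. SPTBN1 (0.54, adjusted p = 0.0743), ACTN1 (0.37, adjusted p = 0.177), TLN1 (0.36, adjusted p = 0.233), FLNA (0.23, adjusted p = 0.337) and IQGAP1 (-0.19, adjusted p = 0.578) were not called. IQGAP1 had 500.0, 396 and 335 CPM in the undepleted wash against 595, 492, 411.5 and 373 in the depleted wash, which overlapped. Leaving out any undepleted library left 1 or 2 calls, and leaving out depleted library 2, 3 or 4 left 2. Pairing libraries by the column prefix as a replicate block called 8 of 9 higher, all but IQGAP1 (-0.06, adjusted p = 0.679), where 32.5% of all genes were called.

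All 5 groups can be set on the scale of CPM computed without mitochondrial and rRNA genes and without TMM factors. On it DBN1 averaged 920.1 ± 178 in the undepleted wash (SD, n = 3), 396 ± 152 in the depleted wash, 149 ± 22 in the nucleus, 33.9 ± 7.2 in the cytoplasm and 93.3 ± 23.6 in whole cells (n = 4 each). SPTBN1 averaged 1214 ± 46, 863 ± 147, 669 ± 44, 48.9 ± 11.7 and 299 ± 15 in the same groups. The undepleted wash exceeded every cytoplasm and every whole-cell library for 9 of 9, and every nucleus library for 8 of 9, all but IQGAP1, which averaged 639.8 ± 130 in the undepleted wash against 614 ± 28 in the nucleus. On that scale 17.3, 13.0 and 22.2% of 15940 genes lay above every cytoplasm, whole-cell and nucleus library. These counts describe the wash excess for which several of the mRNAs were picked. Depletion differs between these groups, so no test was made across it.

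Introns are removed as a transcript is spliced, and reads in them can come from unspliced RNA, from retained introns or from genes that overlap, which the counts do not separate. The intronic share, the part of a gene's gene-body counts that did not fall on its exons, was lower in the wash than in the nucleus for every one of the 9, as it was without overlap for 86.3% of 8525 genes with enough counts. It averaged 3.74% in the wash, 28.4% in the nucleus, 18.997% in the cytoplasm and 25.5% in whole cells for SPTBN1, and for IQGAP1 it was 3.19, 25.1, 17.7 and 20.8% in the same fractions. DBN1 stood at 0.834, 16.5, 5.901 and 13.6%. In MYH9 and ACTN1 the wash did not lie below the cytoplasm, with means of 6.32% in the wash and 5.58% in the cytoplasm for MYH9, and 9.66 and 9.53% for ACTN1. The median over all those genes was 34.0% in the wash, 74.4% in the nucleus, 15.7% in the cytoplasm and 52.9% in whole cells. Exon counts enter the share and an excess of them in the wash chose several of the mRNAs, so their low shares in the wash are not independent of that choice.

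The nucleus shows how the 9 differed among themselves. ACTN1 (61.6% ± 2.4), MYH9 (57.5% ± 3.5) and ACTN4 (56.6% ± 2.1) had mostly intronic counts there (SD, n = 4 each). In SPTBN1 (28.4% ± 0.8), IQGAP1 (25.1% ± 0.9), SPTAN1 (21.2% ± 3.9), TLN1 (20.8% ± 1.6), DBN1 (16.5% ± 3.1) and FLNA (2.44% ± 0.22) most counts lay on exons. Low nuclear shares were found on both sides of the split by level. Shares were not adjusted for intron length, which differs between these genes, so they are not fully comparable from gene to gene. FLNA has 10.6 kb of exon in a span of 26.1 kb and TLN1 10.1 kb in 35.4 kb, against 18.5 kb in 215 kb for SPTBN1. Of the 8525 genes, 7.30, 5.13 and 6.29% had a lower nuclear share than SPTBN1, SPTAN1 and IQGAP1, which were higher in the nucleus than in the cytoplasm. For TLN1, lower in the nucleus, it was 4.93%, for FLNA 0.669%, and for ACTN4, higher in the nucleus, 25.6%.

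Intronic shares were tested between the fractions other than the wash, in 27 exact two-sided permutation tests with Benjamini-Hochberg adjustment over them. Nucleus over cytoplasm was higher in 8 of 9, by 2.00 percentage points in FLNA up to 52.1 in ACTN1, with no overlap (exact p = 0.0286, adjusted p = 0.0367, each the smallest that 4 against 4 can give here). The libraries of 90.6% of the 8525 genes were apart in that direction, so that 8 of 9 is near the background. SPTAN1, with 5 to 8 intronic counts per cytoplasm library, was at 21.2% in the nucleus and 25.8% in the cytoplasm (exact p = 0.629, adjusted p = 0.629). Cytoplasm was lower than whole cell in 7 of 9, all but SPTAN1 and IQGAP1, and nucleus was higher than whole cell in 6 of 9, all but SPTBN1, SPTAN1 and DBN1, where 88.1 and 77.5% of the 8525 genes did so without overlap. With replicate numbers paired none passed, since 4 pairs cannot give an exact p below 0.125.

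**Figure D3:**
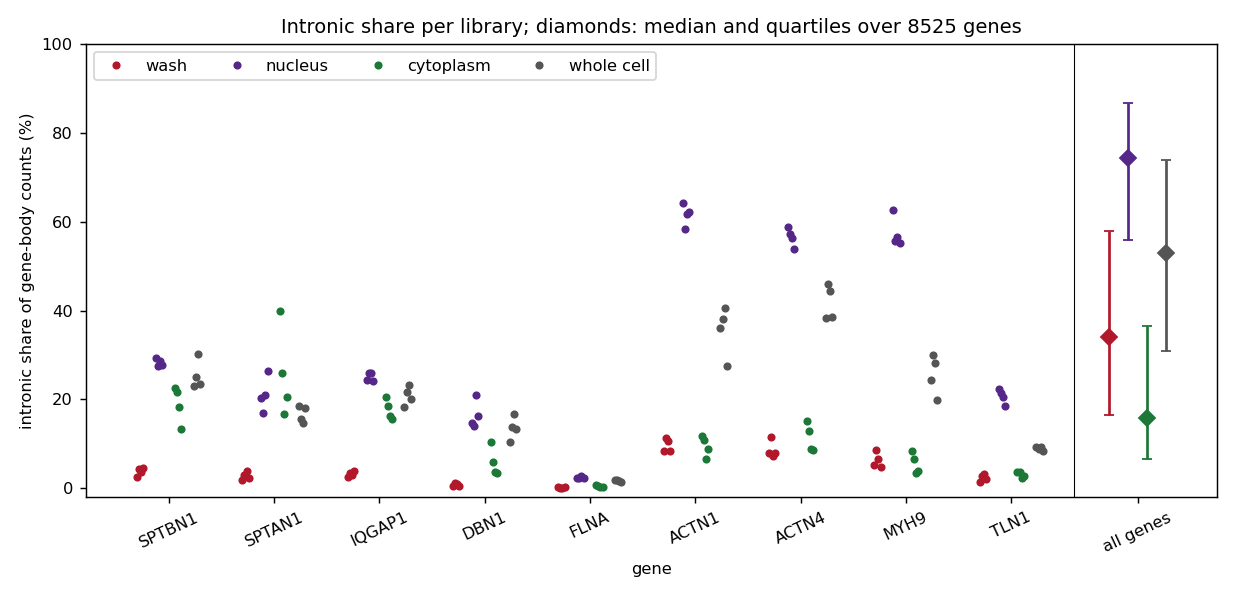
Intronic share of gene-body counts (%) of the 9 mRNAs in each depleted library, with the median and quartiles over 8525 genes at the right. Wash points lie below all nucleus points for each gene, and in the nucleus ACTN1, ACTN4 and MYH9 averaged 61.6, 56.6 and 57.5% while the others averaged 28.4% or less.

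The 9 mRNAs have coding sequences longer than that of the median gene, but the whole DBN1 transcript, at 3072 bases, lay under the median of 3150. The 9 coding sequences run from 1956 bases in DBN1 to 7944 in FLNA, with a median of 5883 against 1398 over 11265 tested protein-coding genes. Of the 9, 8 fell in the longest quintile of coding length and DBN1 in the next. Their median exon number was 38, against 9 over those genes, and their median GC content 57.7% against 48.4%, from 43.6% in IQGAP1 to 63.4% in DBN1.

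Over all coding genes, longer ones were higher in the nucleus relative to the cytoplasm. From the shortest to the longest quintile of coding length, medians of the log2 fold change were -1.32, -0.67, -0.27, -0.06 and 0.38 for nucleus over cytoplasm, and -0.48, -0.24, -0.05, 0.03 and 0.24 for wash over cytoplasm. Spearman's rho with coding length, a description across 11265 genes that share the same libraries, was 0.397 for nucleus over cytoplasm, 0.358 for wash over cytoplasm, 0.019 for wash over whole cell and -0.275 for wash over nucleus. SPTBN1 stood above 96.7% of the longest quintile for nucleus over cytoplasm and above 99.6% of it for wash over whole cell. The wash excess chose several of the mRNAs, so the second value is not independent of that choice. MYH9 and TLN1, in the same quintile, lay below its median for nucleus over cytoplasm. What length contributes to the values of these mRNAs was not tested.

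**Figure D4:**
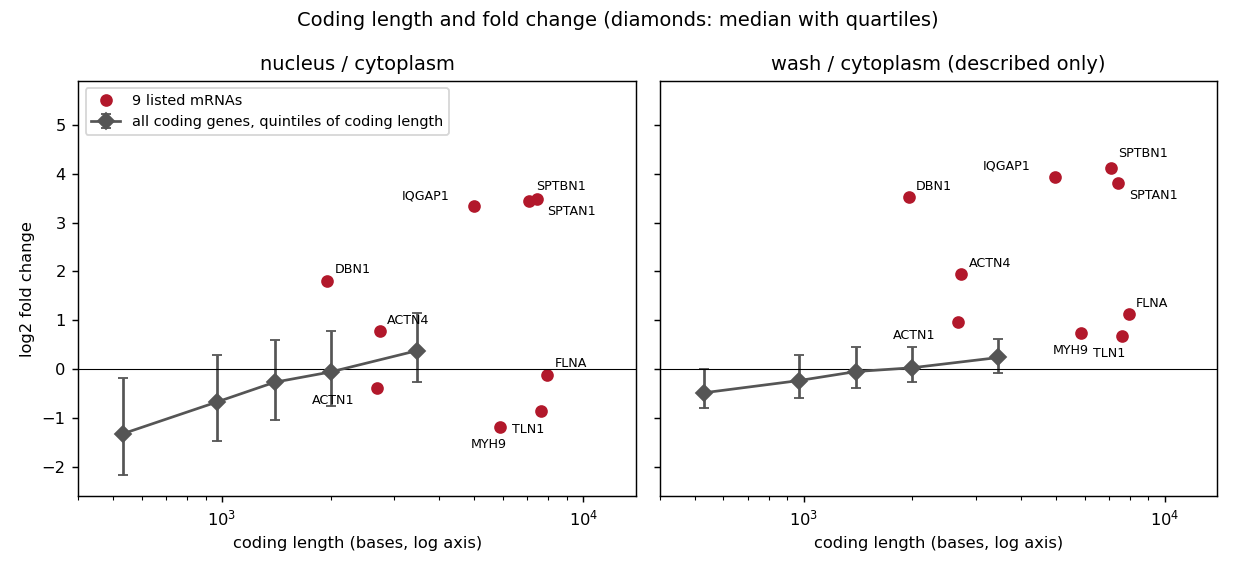
Log2 fold change against coding length (bases, log axis) for nucleus over cytoplasm and for wash over cytoplasm, with median and quartiles for quintiles of 11265 coding genes and the 9 mRNAs as red points. The quintiles climb with length from -1.32 to 0.38 on the left, while SPTBN1, SPTAN1 and IQGAP1 lie far above and MYH9 and TLN1 below the longest quintile.

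Paralogs did not all follow their relatives. Of 12 tested paralogs, 7 were higher and 1 lower in the nucleus than in the cytoplasm, with a median of 0.81, and 0 were higher and 4 lower in the cytoplasm than in whole cells. Over all genes 39.3% were higher and 37.5% lower in the first comparison, and 22.3% higher and 27.6% lower in the second. For nucleus over cytoplasm the paralogs split into 10 higher and 0 lower with no composition factor, and 4 higher and 5 lower with spike-in library sizes. SPTB, the erythroid beta spectrin, was lower in the nucleus, at 123 ± 19 CPM against 181 ± 7 in the cytoplasm (-0.56, adjusted p = 7.03e-04; SD, n = 4 each).

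The nonerythroid beta chain SPTBN1 had the opposite direction (3.44). In the wash SPTB had 317 ± 50 CPM, so that wash over nucleus, given as a description, was 1.36. FLNC, a homologue of FLNA, was not called for nucleus over cytoplasm (-0.26, adjusted p = 0.106), nor was FLNA. MYH10, the heavy chain of nonmuscle myosin IIB, was not called either (-0.21, adjusted p = 0.261), against -1.18 in MYH9.

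Of 30 tested genes for other large cytoskeletal scaffolds, 18 were higher and 3 lower in the nucleus than in the cytoplasm (median 0.56), beside 39.3% and 37.5% of all genes. With spike-in library sizes 11 were higher and 7 lower, and with no composition factor 26 and 1. In the cytoplasm 1 was higher and 14 were lower than in whole cells, beside 22.3% and 27.6% of all genes. DIAPH1, a formin that elongates actin filaments, had 1130 ± 47 CPM in the nucleus against 345.5 ± 13.5 in the cytoplasm (1.71, adjusted p = 3.55e-12) and 2772 ± 152 in the wash. MACF1, which links actin to microtubules, was at 2.502 for nucleus over cytoplasm (adjusted p = 5.46e-10) and CEP350, a centrosomal protein, at 1.88 (adjusted p = 1.34e-07). DYNC1H1, the dynein heavy chain, was not called (0.30, adjusted p = 0.182). MYO1E lay farthest from the list's median at 5.10 (adjusted p = 1.48e-11), with 8 annotated genes overlapping it and 0.641 CPM in the cytoplasm.

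Small actin-related mRNAs were the opposite of the spectrins. Of 30 genes for actin, tropomyosin, myosin light chains and small actin-binding proteins, 28 were lower and 1 higher in the nucleus than in the cytoplasm (median -2.20), and 26 were higher and 0 lower in the cytoplasm than in whole cells. The second count depended on the scale: it was 18 higher and 1 lower with no composition factor, and 0 higher and 21 lower with spike-in library sizes. The first was 27 and 29 lower there. Over all genes in the main fit, 39.3% were higher and 37.5% lower in the nucleus than in the cytoplasm. In the cytoplasm 22.3% of all genes were higher and 27.6% lower than in whole cells. ACTG1, cytoplasmic gamma-actin, had 63.5 ± 13.0 CPM in the nucleus against 606 ± 38 in the cytoplasm (-3.25, adjusted p = 7.26e-14), and MYL12B, a regulatory light chain of the myosin whose heavy chain MYH9 encodes, was at -3.16 (adjusted p = 3.98e-13). ACTB (-3.19, adjusted p = 4.49e-15) and TMSB10, a thymosin that binds actin monomers (-3.43, adjusted p = 1.07e-08), were lower too. The exception was ARPC4, an Arp2/3 subunit (1.04, adjusted p = 4.19e-06).

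Partners at the membrane were mixed. Of 21 tested membrane skeleton and linker genes, 3 were higher and 12 lower in the nucleus than in the cytoplasm (median -0.45), beside 39.3% and 37.5% of all genes. MSN, moesin (-1.81, adjusted p = 6.37e-11), and EZR, ezrin (-1.19, adjusted p = 2.00e-07), were among the lower ones. VCL, vinculin, which binds talin (0.10, adjusted p = 0.387), and MPP1, a palmitoylated red cell membrane protein (-0.27, adjusted p = 0.0896), were not called, and EPB41L4A lay farthest from the median (3.07, adjusted p = 1.84e-09). VCL had 727 ± 62 CPM in the wash against 333 ± 17 in the nucleus, 309.9 ± 29 in the cytoplasm and 319.8 ± 23 in whole cells.

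Integrin and adhesion partners were higher in 5 and lower in 13 of 23 (median -0.49), beside 39.3% and 37.5% of all genes. The GTPases RHOA (-3.53, adjusted p = 1.71e-14), RAC1 (-2.84, adjusted p = 2.23e-13) and CDC42 (-2.37, adjusted p = 1.50e-11) were lower in the nucleus. ITGB1, the integrin beta chain that talin binds, was not called (-0.04, adjusted p = 0.761) and had 481 ± 24 CPM in the wash against 171 ± 20 in the nucleus. MYLK, a myosin light chain kinase, lay farthest from the median (2.99, adjusted p = 8.11e-10). Without a composition factor, which moved the median of all genes to 0.64, the medians of the linker and adhesion lists were 0.16 and 0.12, and with spike-in library sizes, which moved it to -0.60, that of the large scaffolds was -0.08. Linkers split into 7 higher and 8 lower without a composition factor and 2 and 15 with spike-in sizes, and adhesion partners into 7 and 9, and 2 and 16. Each list's median stayed on its side of the all-gene median under both.

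**Figure D5:**
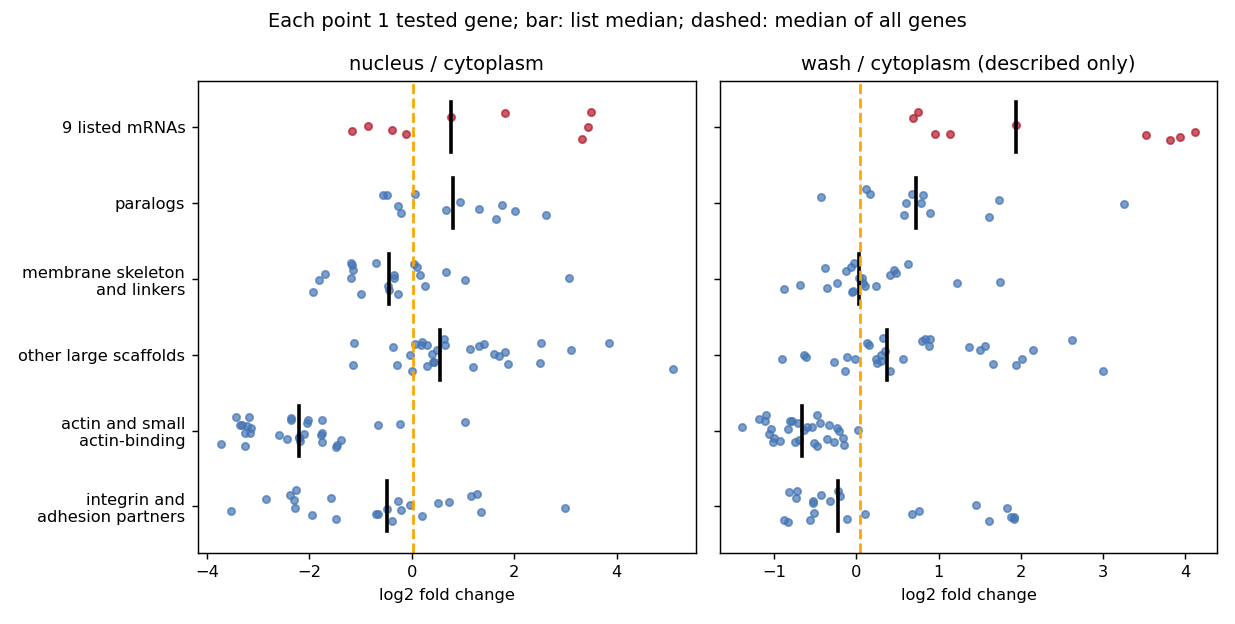
Log2 fold change of the 9 mRNAs and of each tested gene of 5 related lists for nucleus over cytoplasm and, described only, for wash over cytoplasm, with list medians as bars and the median of all genes dashed. The small actin-binding genes centre on -2.20 on the left, while 5 of the 9 mRNAs lie well to the right of the dashed line in both panels.

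Across the 16 depleted libraries the profile of ACTN4, after centring each on its own mean, lay closest to the median profile of the 9, with a root mean square difference of 0.103 on the log2 scale, and that of SPTBN1 farthest at 1.03. Among 2436 other genes with at least 10 CPM and no overlapping annotation, GOLIM4 (0.193), LRPAP1 (0.219), PLXNA1 (0.250), EXT2 (0.252), P3H1 (0.259) and MUT (0.261) were nearest to that median profile. GOLIM4 had a mean of 287 CPM in the wash, 165 in the nucleus, 90.3 in the cytoplasm and 133 in whole cells. Nearest to SPTBN1 among those other genes were RNF139-AS1 (0.733) and ARGLU1 (0.823), while within the 9 IQGAP1 (0.167) and SPTAN1 (0.260) were nearer to it. These profiles include the wash libraries, whose excess chose several of the mRNAs, so likeness within the 9 is not independent of that choice. IQGAP1 and SPTAN1 themselves overlap annotated genes, and other genes that do so were not compared.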

How the data were processed

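The authors deposited tables of raw counts per gene, over exons and over whole gene bodies, with 1 column per library and no normalization. Per the submitters' processing notes, cutadapt 2.5, STAR 2.7.0a, featureCounts 1.6.2 and genome build hg38 were used; neither annotation release, strand setting nor handling of shared reads is given in the sources used here, and values of overlapping genes are uncertain. Positions and lengths came from GENCODE 29 (57447 of 58051 identifiers matched). The members, the 5 related lists and the tests were chosen with earlier results of these data known. All 9 members are named, and of each list the paralog SPTB, the 4 genes with the highest whole-cell count per kb of exon, and the called gene farthest from the list's median for nucleus over cytoplasm; a few genes this rule names are not reported here.

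edgeR 4.0.16 in R 4.3.3 (quasi-likelihood, TMM, filterByExpr, Benjamini-Hochberg) was fitted to the exon counts of the 16 depleted libraries, with 15940 genes, and apart to the 7 wash libraries, with 11627. SE was derived from the log2 fold change and its F statistic. Spike-ins (11 transcripts) were left out of library sizes. How much was added per cell is unknown here, so spike-in scaling gives no RNA amounts. Genes for all-gene intronic shares had at least 50 gene-body counts in every nucleus library, and any in every other depleted library. That background was thus filtered on nuclear counts. The labels name no molecular identifiers, so intervals cover counting error only. The test was checked on simulated counts. DESeq2 1.42.0, other scalings, filters, blocks and left-out libraries were alternatives.

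Same-numbered libraries deviated together in 24 of 24 pairs of fractions and numbers (correlations of deviations from group means 0.104 to 0.379), although only 11 of 24 correlated best with their own number. The main fits and the main intronic share tests did not pair libraries. Numbers were taken to pair the samples only in the alternatives with a replicate block. In that alternative the undepleted wash was paired by column prefix, with correlations of 0.417, 0.310 and 0.193.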

Additional observations from a re-analysis of the deposited data

Results flagged for a closer look

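Of 72 groups of 4 libraries checked for a library far from the others, 3 were picked out, and chance alone picks out about 1 in 20. DBN1 was at 550.75 CPM in nuclear wash library 1, while the other wash libraries were at 250.1, 286.2 and 279.2 CPM. ACTN1 was at 184.69 CPM in that same library, beside 137.8, 141.6 and 141.3 CPM in the others. The intronic share of ACTN4 was 11.536% in nuclear wash library 2 (95% Wilson interval 10.4 to 12.8%), beside 7.98% (6.80 to 9.34%), 7.25% (6.36 to 8.26%) and 7.87% (6.86 to 9.02%) in libraries 1, 3 and 4.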

How the results depend on the processing

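Of 621 values of single mRNAs recomputed under the alternatives of the tested comparisons, 523 kept their direction and their side of the threshold, 39 lost the call, 34 gained one and 25 changed sign. The cause of these changes was not tested beyond what each alternative does to the scale.

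For nucleus over cytoplasm, 8 of 9 were called in the main fit and in each fit without 1 library, and 7 with RLE factors or DESeq2, where ACTN1 lost its call, and with no composition factor, where FLNA was at 0.50 and ACTN1 at 0.23. FLNA was at 0.0301 with RLE factors and with DESeq2, and at 0.24 within prefix 1. For cytoplasm over whole cell, 5 were called, as in each fit without 1 library, 9 with spike-in sizes, all lower, and 8 with gene-body counts, 4 higher and 4 lower. ACTN1, MYH9 and TLN1 were at -0.16, -0.0379 and -0.11 with no composition factor and at -1.17, -1.04 and -1.12 with spike-in sizes; FLNA was at 0.72 with gene-body counts and 0.0206 within prefix 2, and ACTN1 at -0.0508 within prefix 1. All-gene calls there were 7963, 14700 with spike-in sizes and 12049 with gene-body counts.

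For nucleus over whole cell, 6 were called, 7 with RLE factors, no composition factor, DESeq2 or without mitochondrial and rRNA genes, 8 with the replicate block, 9 with spike-in sizes and 5 to 7 without 1 library. No composition factor put FLNA at 0.15 and ACTN1 at 0.0643, gene-body counts DBN1 at -0.0717, and spike-in sizes SPTBN1 at -0.86, SPTAN1 at -1.09, IQGAP1 at -0.88, DBN1 at -1.34 and ACTN4 at -1.57. All-gene calls were 8755, and 13771 with spike-in sizes. Lower than whole cell in both fractions, 0 were called, and 9 with spike-in sizes.

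For undepleted over depleted wash, 4 were called, 2 with no composition factor, 1 with spike-in sizes, 2 without the count filter, 8 with the replicate block and 1 to 5 without 1 library. No composition factor put FLNA at -0.27, ACTN1 at -0.13 and TLN1 at -0.15. All-gene calls were 1290, 3999 with no composition factor, 471 with spike-in sizes, 1987 without the filter, 3778 with the block, 768 and 799 without depleted libraries 2 and 3, and 468 and 459 without undepleted libraries 2 and 3. Beyond these and the calls named for nucleus over whole cell, the block changed no call.

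The median of the 9 for wash over cytoplasm was 1.94, 1.54 with gene-body counts, -1.23 with spike-in sizes and 1.81 to 2.02 without 1 library. Wash over nucleus was 1.25, 0.57 with no composition factor, -1.28 with spike-in sizes, 1.47 without the filter and 1.17 to 1.301 without 1 library. Wash over whole cell was 1.11, 0.79 with no composition factor, -3.31 with spike-in sizes, 1.37 with gene-body counts and 1.01 to 1.23 without 1 library. Of 27 intronic share tests 21 passed, and 0 passed with pairing as a replicate block or without any replicate number, as exact p cannot fall below 0.125 or 0.1 there. SPTAN1 in the cytoplasm, at 12 to 27 exon counts, is the value most limited by depth.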
